A study of Macaca mulatta with 6 samples.

Results

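The sites described here are autosomal CCGG sites of the rhesus macaque, Macaca mulatta, that were listed in the deposited table of sperm and had no entry in that of haploid embryonic stem cells (haESC). They were chosen by listing alone: a row of the sperm table on chromosomes 1 to 20 whose chromosome and position were in no row of the haESC table. This rule took 39077 of 1254904 autosomal sperm sites, or 3.11% (95% Wilson interval 3.08% to 3.14%, counting error only). The other 1215827 were listed in both tables and are called shared sites. Because listing comes from the measurement, that share is a description.

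The study profiled sperm and parthenogenetic haESC, which carry a genome from an egg and none from a father, in order to map imprinted differentially methylated regions. Each cell type had 3 libraries of genomic DNA, digested with HpaII, BGT_MspI or MspI, with 1 library per digest and single-end reads of 50 bp. The labels give neither the animals, nor their age, nor the cell line or its passage, and no treatment. No library was replicated, so differences cannot be set against replicate error and no test is given, and intervals cover counting error over sites that are not independent of each other.

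Most CpG positions of a mammalian genome are methylated in sperm, while dense CpG clusters at promoters are mostly free of it. At an imprinted region the 2 parental copies differ, and the mark set in the egg or in the sperm persists after fertilization. HpaII cuts CCGG only where the inner cytosine is unmodified, MspI cuts it with or without methylation, and a glucosyltransferase (BGT) makes hydroxymethylated sites resistant to MspI. A tag count beside a site therefore reports cutting in that digest, and a methylated site gives few HpaII tags.

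Each row of a table holds 3 different signals, in columns 3, 4 and 8, and column 7 repeats column 4 in all 1297392 rows of sperm and all 1366982 of haESC. The columns have no names. No digest is therefore assigned to any of them, and a high or low value is given as such and not as a methylation level. Columns 3 and 4 stand beside the p-values of a first pair and columns 4 and 8 beside those of a second. No autosomal site of either table had a value of 0 in any of the 3 columns. No source used here says what keeps a site out of a table, and the read depth per library is unknown.

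Sperm-alone sites had low sperm signals. The median of column 3 was 6.20 at sperm-alone sites (quartiles 3.01 and 17.7) and 16.4 at shared sites (9.04 and 33.2), a ratio of 0.378. For column 4 the medians were 8.29 at sperm-alone sites and 16.7 at shared sites, a ratio of 0.497. For column 8 they were 8.80 at sperm-alone sites and 16.7 at shared sites, a ratio of 0.527. The distributions overlapped widely: the upper quartile of column 4 was 16.2 at sperm-alone sites, just under the median of shared sites. In each of the 3 columns the median of sperm-alone sites was below that of shared sites on 20 of 20 autosomes. Low signal was not particular to sperm-alone sites. In the haESC table, the medians of haESC-alone sites over those of shared sites were 0.333, 0.475 and 0.474 in columns 3, 4 and 8.

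At the low end, values fell into bands set apart by gaps. The lowest band of column 3 ended at 3.11 and the next began at 5.47. It held 33.1% of sperm-alone sites (95% Wilson interval 32.7% to 33.6%) and 10.6% of shared sites (10.5% to 10.6%). In column 4 the lowest band, up to 0.690, held 5.09% of sperm-alone sites and 0.795% of shared sites, and in column 8, up to 0.697, it held 5.05% of sperm-alone sites and 0.826% of shared sites. Sperm-alone sites were also found above these bands. Among the sperm sites above the lowest band in every column, 24486 of 1099451 (2.23%) were still missing in haESC, and among those in the lowest band of any column the share was 9.39%.

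**Figure D1:**
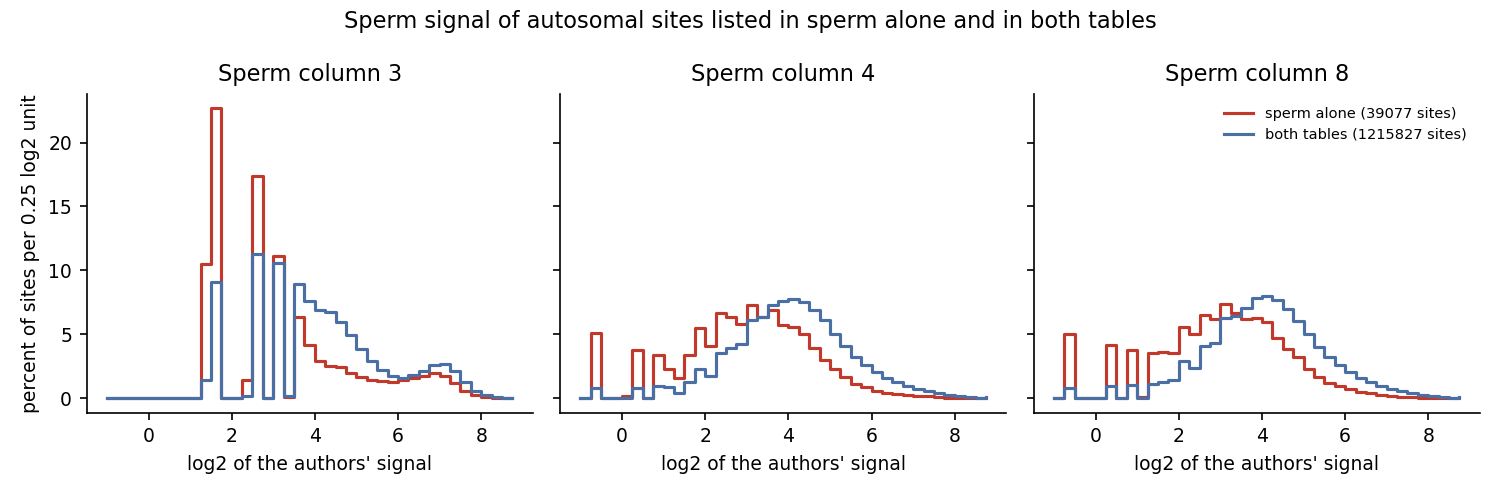
Distribution of the authors' sperm signal (horizontal axis, log2) in columns 3, 4 and 8 for sites listed in sperm alone and in both tables, as the percent of each class per step of the axis. Sperm-alone sites lie lower in each column (medians 6.20 against 16.4 in column 3), and column 3 shows separate low bands and a second rise at its high end in both classes.

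The share of sites missing in haESC fell as columns 4 and 8 rose, and followed no such order in column 3. Over classes of column 4 it went down in steps, from 13.2% of sites at values up to 2, through 3.0% at 8 to 16, to 0.810% above 64. Column 8 gave 12.8%, 3.0% and 0.888% in the same classes. Over classes of column 3 the share was 9.15% up to 4, 5.0% at 4 to 8, 2.48% at 8 to 16 and 1.27% at 16 to 32, its lowest value. It was higher again above that, with 1.70% at 32 to 64, 2.62% (95% Wilson interval 2.52% to 2.72%) at 64 to 128 and 1.74% above 128.

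The second rise held at fixed column 4. Among sites with column 4 up to 2, the share missing was 22.9% at a column 3 up to 4, 5.93% at 16 to 32 and 15.4% at 64 to 128. Among sites with column 4 between 8 and 16 it was 7.48%, 1.47% and 2.78% in the same classes of column 3. All 7 classes of column 4 had their lowest share at a column 3 of 16 to 32 and a higher one at 64 to 128. The sperm-alone sites thus included many sites weak in columns 3 and 4 and a smaller set with a strong column 3. Others fitted neither: of those with a column 3 up to 4, 3326 had a column 4 between 8 and 16. At a column 3 above 64 the share missing, 2.21%, was still below the 3.11% of all autosomal sperm sites.

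**Figure D2:**
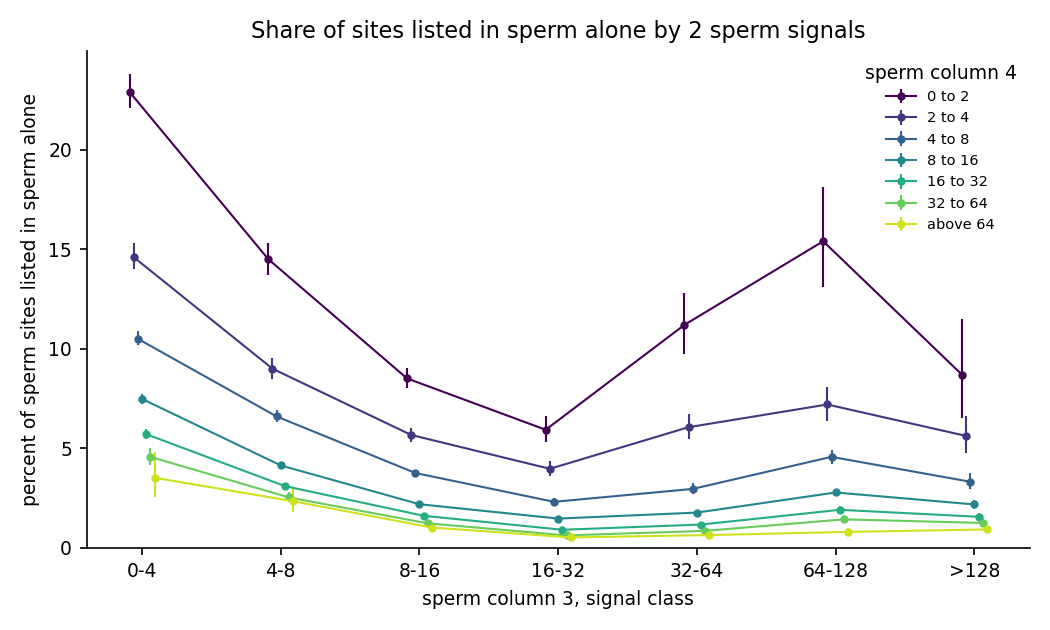
Percent of autosomal sperm sites listed in sperm alone (vertical axis, with 95% Wilson intervals) by class of sperm column 3 (horizontal axis), with 1 line per class of sperm column 4. Each line has its lowest point at a column 3 of 16 to 32 and rises again at 64 to 128, where the line for column 4 up to 2 reaches 15.4%.

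The boundary of 64 in column 3 was set after these values were seen and divides the sites for the description below. Above it lay 4178 sperm-alone sites, 10.7% of their class, and 184882 shared sites, 15.2% of theirs. These high sperm-alone sites had median signals of 114 in column 3, 12.1 in column 4 and 12.3 in column 8, against 124, 21.4 and 21.6 at high shared sites. Column 3 exceeded column 4 by a median of 3.16 on the log2 scale at high sperm-alone sites and by 2.44 at high shared sites. The other 34899 sperm-alone sites had medians of 6.17, 8.26 and 8.23 in columns 3, 4 and 8, against 14.0, 16 and 16.1 at the other shared sites.

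The authors' own p-values set fewer sperm-alone sites apart between libraries. In the authors' deposited table, a first-pair adjusted p-value below 0.05, called here, was met by 22863 sperm-alone sites (58.5%) and by 70.1% of shared sites. Over all autosomal sperm sites it was met by 69.7%. Calls in the authors' deposited table with column 3 above column 4 took 29.7% of all sperm-alone sites, against 34.6% over all autosomal sperm sites. Those with column 3 below column 4 took 28.8% of sperm-alone sites, against 35.1% over all. The second pair was called at 1515 sperm-alone sites (3.88%) and 7.99% of shared sites in the authors' deposited table, against 7.86% over all. The difference between the classes moved with signal. When shared sites were weighted to the sperm-alone distribution of columns 3 and 4, 58.0% of them were called in the first pair and 3.93% in the second. The first pair is made of those same 2 columns, so its match was largely set by the weighting and is no separate result. The second pair shares column 4 with the weights.

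The second-pair calls leaned to 1 side. In the authors' deposited table column 8 was above column 4 at 942 of the 1515 called sperm-alone sites (62.2%) and at 50.8% of called shared sites. As shares of all sites of a class, calls with column 4 above column 8 took 1.47% of sperm-alone sites, against 3.85% over all autosomal sperm sites. Calls with column 4 below column 8 took 2.41% of sperm-alone sites, against 4.01% over all.

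CCGG sites lay slightly closer together around sperm-alone sites at short range. Within 100 bp on either side, 13.7% of sperm-alone sites and 11.7% of shared sites had another listed site of either table. Within 200 bp the mean number of other sites was 0.325 at sperm-alone and 0.287 at shared sites. At 1 kb the means were 1.73 at sperm-alone and 1.69 at shared sites, and at 10 kb 15.4 at sperm-alone and 15.7 at shared sites, so the small excess did not extend to wider stretches. The share missing was 3.04% (95% Wilson interval 3.01% to 3.08%) for sites with no other within 100 bp, 3.61% (3.51% to 3.71%) for those with 1 and 4.36% (3.88% to 4.91%) for those with 2. Sites listed in haESC alone had 0.289 others within 200 bp, close to shared sites.

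Chromosomes differed little. The share of sperm sites missing in haESC ran from 2.81% on chromosome 10 (95% Wilson interval 2.68% to 2.93%) and 2.85% on chromosome 1 to 3.48% on chromosome 5 and 3.59% on chromosome 17 (3.4% to 3.79%). On chromosome 17 the median signals of sperm-alone sites were 8.95 in column 3 and 9.38 in column 4, and on chromosome 10 they were 6.19 and 7.71. The 2 column 3 medians lie in neighbouring low bands of that column, so they differ by a single step. Chromosomes 19 and 5 also had column 3 medians in the upper of these bands, at 8.91 and 8.90. Within 1 Mb of the first or last listed site of an autosome the share was 3.59% (3.41% to 3.78%), against 3.10% (3.07% to 3.13%) elsewhere.

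Sperm-alone sites followed each other along the chromosome more often than shared sites were followed by them, above all at distances below 1000 bp. The next sperm site was also sperm-alone after 5.57% of sperm-alone sites (95% Wilson interval 5.35% to 5.80%) and after 3.04% of shared sites. At 100 to 200 bp the shares were 9.64% (8.63% to 10.8%) after sperm-alone and 3.09% after shared sites, a ratio of 3.12. At 500 to 1000 bp they were 5.13% and 2.97%, and at 2000 to 5000 bp 3.47% (3.08% to 3.90%) and 3.0%. At 5000 to 10000 bp they were 4.05% (3.39% to 4.82%) and 3.12%, and beyond 10000 bp 4.21% (3.21% to 5.49%) and 3.15%, so a smaller excess was seen at long distances too.

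The ratio of these shares was largest among pairs of high sites. Among neighbours at most 500 bp apart that both had a sperm column 3 above 64, the second was sperm-alone after 12.7% of sperm-alone sites (95% Wilson interval 11.2% to 14.5%) and after 2.06% of shared sites, a ratio of 6.17. Among neighbours at that distance of which neither was above 64 the shares were 7.27% and 3.28%, a ratio of 2.21. Where 1 of the pair was above 64 they were 10.6% (8.99% to 12.3%) and 3.82%, a ratio of 2.76. The interval after sperm-alone sites there overlapped that of the high pairs. In the haESC table, the next site after a haESC-alone site was haESC-alone in 9.73% of cases and after a shared site in 7.58%, a ratio of 1.28, against 1.83 for sperm-alone sites in the sperm table. An excess at short range was seen for haESC-alone sites too. Their ratio was 2.16 below 50 bp and 1.77 at 100 to 200 bp, against 2.70 and 3.12 for sperm-alone sites. The ratios of the 2 tables were not compared by a test, and the classes differ in size.

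**Figure D3:**
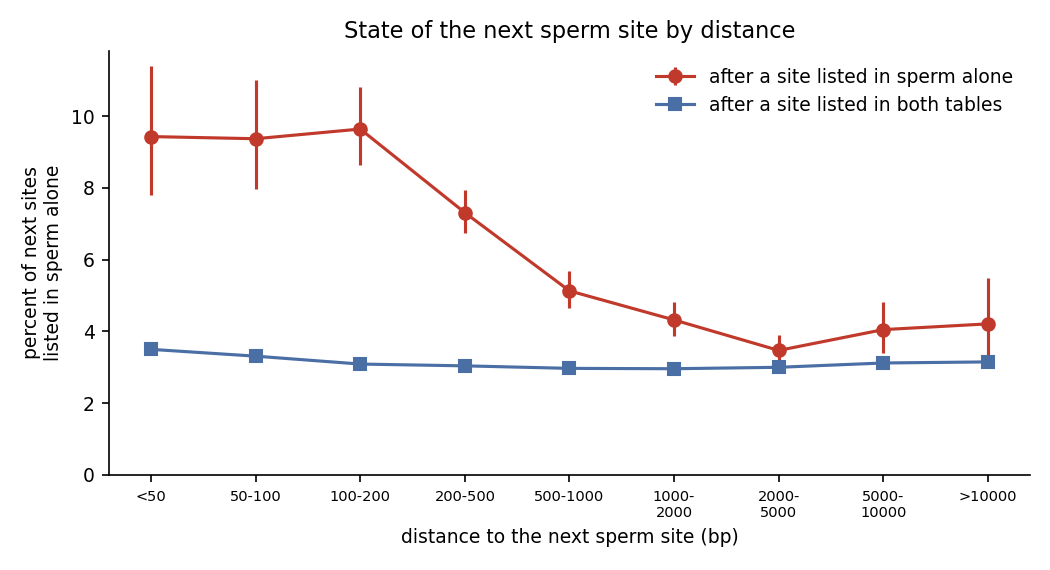
Percent of next sperm sites that were listed in sperm alone (vertical axis) by the distance to the next site in bp (horizontal axis), after a site listed in sperm alone (with 95% Wilson intervals) and after a site listed in both tables. The share after sperm-alone sites is 9.64% at 100 to 200 bp and 3.47% at 2000 to 5000 bp, while the share after shared sites stays between 2.96% and 3.50%.

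Some spacings recurred among the 2176 pairs of neighbouring sperm-alone sites. The most frequent, 234 bp, was found in 30 of these pairs (1.38%) and in 0.351% of pairs of shared sites. The next were 202 bp, with 0.919% of sperm-alone and 0.315% of shared pairs, and 135 bp, with 0.827% and 0.213%. Spacings of 68 and 190 bp each made up 0.735% of sperm-alone pairs, against 0.294% and 0.145% of shared pairs. These 5 were taken for being the most frequent among sperm-alone pairs, so their excess is partly a result of that choice.

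At the nearest shared site, haESC signals can be read beside sperm-alone sites. The rule did not use the values there, but by listing it did set which sites count as shared. The nearest shared site lay at a median distance of 496 bp from sperm-alone sites and 508 bp from shared ones. Its haESC column 3 had a median of 17.4 beside sperm-alone sites (95% interval of the median 17.2 to 17.6) and 19.8 beside shared sites (19.8 to 19.9), and its haESC column 4 medians of 17.5 and 17.9. Its sperm column 3 had medians of 16.3 and 16.9. A lower neighbour signal in the other table was not particular to sperm-alone sites. Within 500 bp of haESC-alone sites, the sperm column 3 of the nearest shared site had a lower median than beside shared sites. The haESC column 3 of that neighbour was lower there too. These differences were not tested.

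Beside high sperm-alone sites the haESC column 3 was much lower than beside high shared sites, and the sperm column 3 was not. With the nearest shared site within 500 bp, its haESC column 3 had a median of 20.1 (19.1 to 21.3) beside 2782 high sperm-alone sites and 40.2 (39.7 to 40.6) beside 125933 high shared sites, a ratio of 0.501. Its sperm column 3 had medians of 118 (115 to 119) and 117 (116 to 117). Beside sites not above 64, the haESC column 3 of a neighbour within 500 bp was 16.4 for sperm-alone and 19.2 for shared sites. The 20.1 beside high sperm-alone sites was thus not low by itself, and the 40.2 beside high shared sites stood above the rest. The other haESC columns differed less: column 4 was 17.7 beside high sperm-alone and 20.3 beside high shared sites, and column 8 was 18.0 and 20.8. The ratio of haESC column 3 was below 1 on 20 of 20 autosomes, between 0.382 on chromosome 16 and 0.754 on chromosome 17. Autosomes are not replicates of a cell type, and no test was made. High sperm-alone sites also had lower own columns 4 and 8 than high shared sites, as given above, and the part of that in this contrast was not tested.

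The contrast was largest next to the site. Up to 100 bp away the haESC column 3 was 19 (17.6 to 22.1) beside high sperm-alone and 54.8 (53.2 to 56.2) beside high shared sites. At 100 to 500 bp it was 20.4 and 37.3, at 500 to 2000 bp 23.3 and 28.2, and beyond 2000 bp 17.1 (15.9 to 18.5) and 17.8 (17.5 to 18.1), where the intervals overlapped. The sperm column 3 in the same classes was 126 and 124, 115 and 114, 45.4 (36.6 to 58.8) and 60.7 (59.3 to 62.1), and 15.6 and 15.4. In both classes the sperm column 3 was thus far lower beyond 500 bp than closer to the site.

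**Figure D4:**
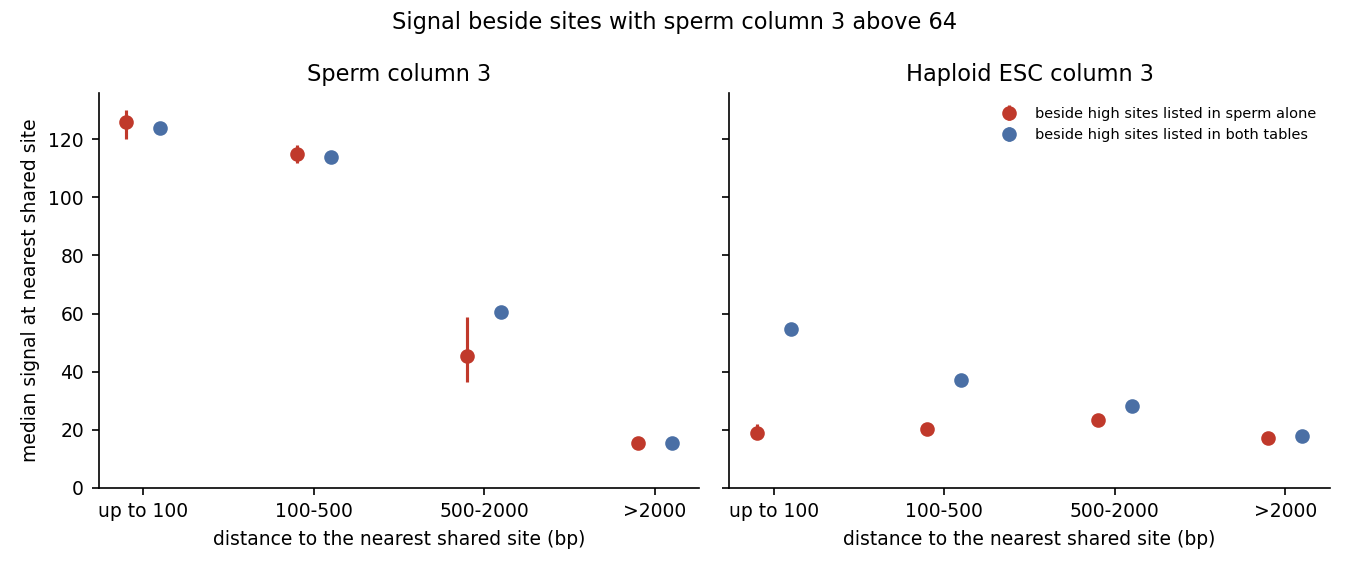
Median sperm (left) and haESC (right) column 3 at the nearest shared site (vertical axis, with 95% intervals of the median) by its distance in bp (horizontal axis), for sites with a sperm column 3 above 64 listed in sperm alone or in both tables. The sperm medians of both classes lie together up to 500 bp (126 and 124 up to 100 bp), and the haESC medians lie apart (19 and 54.8).

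The share missing followed the haESC neighbour in steps. Of high sperm sites with a shared site within 500 bp, 5.10% (95% Wilson interval 4.53% to 5.73%) were missing in haESC where that neighbour had a haESC column 3 up to 4. The share was 3.24% at 8 to 16, 1.75% at 32 to 64 and 1.19% (1.06% to 1.35%) above 128. Sorted by the sperm column 3 of the same neighbour, the share ran between 1.55% and 2.23% with no such order. For sites not above 64 it was 4.62% (4.41% to 4.84%) at a haESC column 3 up to 4, 2.70% (2.52% to 2.88%) at 64 to 128 and 3.04% above that. Sorted by the sperm column 3 of the neighbour, sites not above 64 were missing in 3.46% of cases up to 4, 3.12% at 16 to 32, 5.59% (5.25% to 5.95%) at 64 to 128 and 6.11% (5.61% to 6.66%) above 128. Among these weaker sites the share was thus highest beside a strong sperm neighbour, a wider range than over the haESC classes. Sorted by haESC column 4, the share at high sites was 5.65% up to 2, 2.07% at 16 to 32 and 1.45% above 64, so weak neighbours in that column had more missing sites too. At sites not above 64 it was 5.46% up to 2, 3.21% at 16 to 32 and 3.85% above 64.

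Runs show the sites one by one. A run is a row of sperm-alone sites with no site of either table between them that was listed in haESC. Single sites made up 90.1% of all, and 3875 sites (9.92%) were in runs of 2 or more. Only 13 runs held 5 or more, with 81 sites together. In 4 of them the median sperm column 3 was above 64, and in 3 of these every site was. Positions are those of the tables, whose build is unknown, so they carry no gene names.

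On chromosome 16, 5 sites from 16213586 to 16214107 lay within 521 bp. Their sperm column 3 read 141, 120, 128, 123 and 92.6, and their column 4 read 15.0, 27.1, 15.5, 20.5 and 16.4. All were called in the first pair in the authors' deposited table, the largest adjusted p being 1.15e-21. Of all autosomal sperm sites 69.7% were called in that pair. The nearest shared site before the run, 138 bp away, had a column 3 of 141 in sperm and 17.7 in haESC. The nearest after it, 167 bp away, had 143 in sperm and 1.57 in haESC. The strong sperm signal thus took in both neighbours. In haESC the first was close to the median of shared sites, 19.6, and the second was far below it. Over all 9 shared sites within 10 kb the median column 3 was 15.4 in sperm and 14.9 in haESC. A further 7 sperm-alone sites lay in these flanks.

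On chromosome 13, 6 sites from 89722511 to 89726589 spanned 4078 bp. Their sperm column 3 read 248, 101, 93.5, 130, 76.6 and 125, far above their column 4, which read 20.8, 7.24, 9.58, 20.8, 9.58 and 12.9. Only 5 other sites within 10 kb were listed, all in sperm and 3 of them in haESC. The nearest shared sites, 1349 bp before and 4466 bp after the run, had a column 3 of 11.9 and 12.1 in sperm, against 27.2 and 16.6 in haESC. At the 3 shared ones the median column 3 was 12.1 in sperm and 27.2 in haESC. No shared site lay close enough to show what haESC does inside the run.

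On chromosome 1, 5 sites from 137013396 to 137014461 had a sperm column 3 of 104, 155, 95.4, 70.8 and 91.7. Their column 4 read 58.1, 14.3, 21.5, 12 and 10.8, so the first site was strong in both. All 5 were called in the first pair in the authors' deposited table and 0 in the second. Of all autosomal sperm sites, 69.7% were called in the first pair and 7.86% in the second. The 3 sites within 10 kb, the nearest 4054 bp before the run, were shared, with a median column 3 of 6.05 in sperm and 27.3 in haESC.

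On chromosome 4, 5 sites from 33338684 to 33342210 had a sperm column 3 of 12.1, 9.24, 172, 133 and 114. The last 3 were strong and the first 2 weak. The strongest was also called in the second pair, with columns 4 and 8 at 82.9 and 33.6 and an adjusted p of 2.15e-07 in the authors' deposited table. The 7 shared flanking sites had a median column 3 of 15.1 in sperm and 11.4 in haESC.

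The runs with the most sites were not of this kind. On chromosome 14, 12 sites from 25321914 to 25331870 had sperm column 3 values between 3.01 and 79.9 with a median of 15.0, and column 4 between 1.78 and 63.7 with a median of 13.3. A shared site at 25332934, with a column 3 of 53.8 in sperm and 66.6 in haESC, separates them from 10 more, from 25333087 to 25338562, with column 3 between 2.76 and 51.9 (median 19.9) and column 4 between 2.29 and 57.5 (median 10.6). The column 3 medians lie on either side of that of shared sites over all autosomes, 16.4. The column 4 medians lie between that of all sperm-alone sites, 8.29, and that of shared sites, 16.7. Of 22 sites in both runs, 16 were called in the first pair in the authors' deposited table, a share near the 69.7% of all autosomal sperm sites, with column 3 sometimes above and sometimes below column 4. Only 2 of the 22 exceeded 64 in column 3. Strong sites did lie close by, at offsets of -7219 to -3686 bp from the first site of the first run. Sperm-alone sites there had a sperm column 3 of 75.3, 72.7, 116, 102 and 75.1. A shared site among them had 73.4 in sperm and 3.12 in haESC.

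Of the other runs, 8 sites on chromosome 1 from 218130701 to 218139863 were weak, with column 3 between 2.69 and 11.8 (median 7.60) and 3 called in the first pair in the authors' deposited table. All but 1 of the 14 sites around this run were shared, with a median column 3 of 14.7 in sperm and 18.8 in haESC. The run with the lowest median of the 13 was on chromosome 19 from 57104584 to 57107559, with column 3 of 2.89, 2.80, 2.59, 6.21 and 12.3, of which 3 are in the lowest band. On chromosome 20, from 64375455 to 64378099, column 3 read 33.9, 32, 6.10, 11.8 and 249, so 1 site of the 5 stood far above the others. On chromosome 14, 5 sites from 68338867 to 68353878 included 2 strong neighbours, of 114 and 117. The run from 2380 to 3205 on chromosome 1 held the first sites listed there and had a median column 3 of 14.4. The last 2 runs, at 13588764 to 13591593 on chromosome 3 and 107598914 to 107601023 on chromosome 15, had medians of 17.0 and 11.7.

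**Figure D5:**
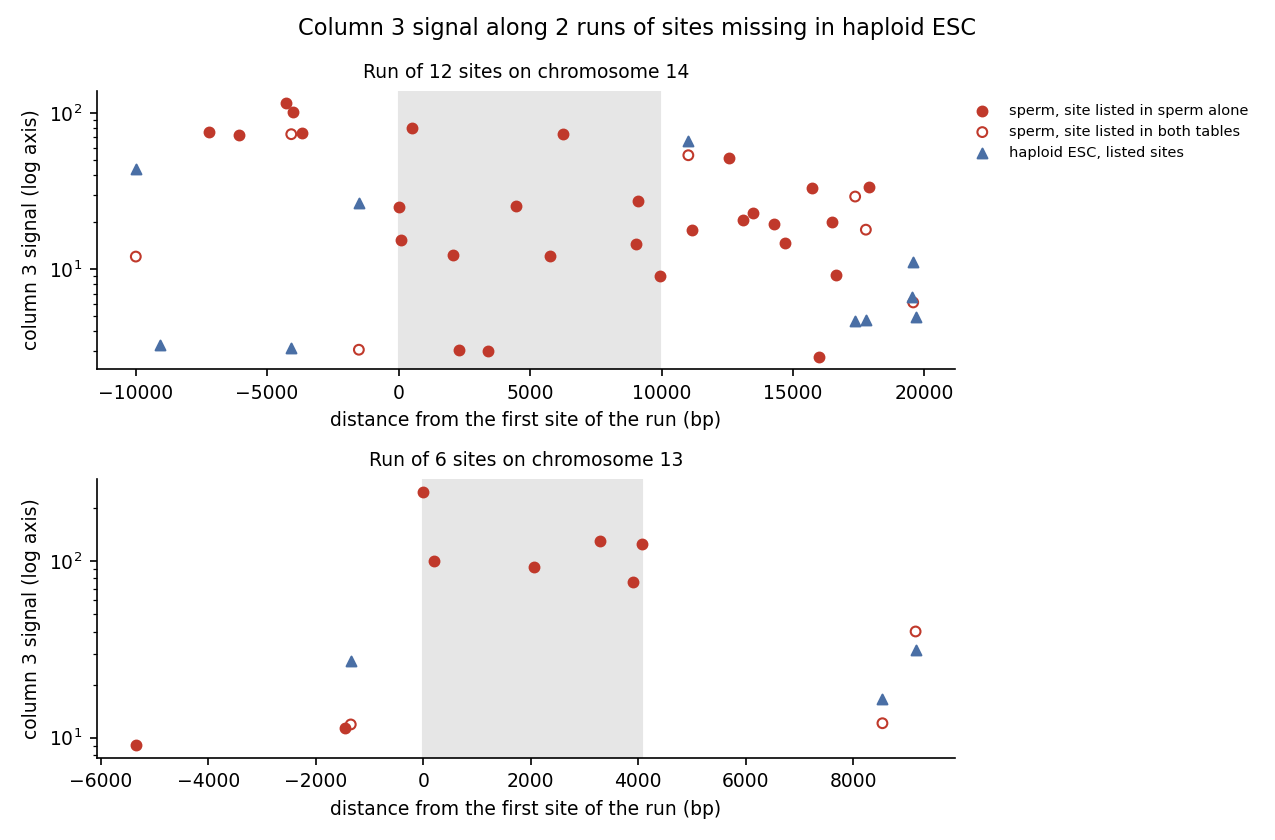
Column 3 signal (vertical log axis) of the listed sites within 10000 bp of the run of 12 sites on chromosome 14 (top) and the run of 6 sites on chromosome 13 (bottom), by distance from the first site of the run in bp; the run is shaded. Sperm values in the upper run spread from 3.01 to 79.9, while all 6 in the lower run lie between 76.6 and 248, above each flanking value of either cell type.

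Across windows of 100 kb with at least 20 sperm sites, the median number of sperm-alone sites was 1, and 6566 of 23469 windows had none. Only 68 windows had 10 or more. The fullest, on chromosome 14 from 25300001 to 25400000, had 29 sperm-alone sites of 84 and contains both long runs. A window on chromosome 6 from 180000001 to 180100000 had 18 of 91, and one on chromosome 12 from 102900001 to 103000000 had 17 of 191. On chromosome 9 from 48000001 to 48100000, 15 of 29 sites (51.7%) were sperm-alone, with a median column 3 of 35.4 and 6 of them above 64. On chromosome 11 from 133600001 to 133700000, 15 of 148 were.

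Among the 10 sperm-alone sites with the highest sum of columns 3 and 4, the first 4 lay far above the 95th percentile of their class in column 3, 117. The site at position 77764739 of chromosome 12 had 1974, 2686 and 2348 in columns 3, 4 and 8, and that at 74854713 of the same chromosome had 1676, 1281 and 1258. Sites on chromosome 10 at 80959748 (1502, 1408 and 1220) and chromosome 20 at 14966489 (1486, 846 and 795) followed. All 3 columns were high together at the sites named here by position, in contrast to the high runs. Of the 10 with the highest sum of columns 3 and 4, 7 had column 3 above column 4.

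Among the second-pair calls, the smallest adjusted p was 5.93e-18 in the authors' deposited table, at 69660003 on chromosome 18, where columns 4 and 8 read 83.7 and 186. The next, at 114090911 on chromosome 5 with an adjusted p of 4.76e-16 in that table, pointed the other way with 404 and 238. A site on chromosome 11 at 34781720 had 108 and 37.6. Of the 10 with the smallest second-pair values, 5 had column 4 below column 8 and 9 were also called in the first pair in the authors' deposited table, which 69.7% of all autosomal sperm sites were.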

How the data were processed

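The authors deposited 1 table per cell type, without column names and tied by the labels to the 3 libraries of that cell type. Columns 3, 4 and 8 hold the authors' signal, always positive, with a normalization that no source used here states. They were taken as 3 unnamed libraries of the cell type. Column 7 repeats column 4, so 2 value columns, 1 per table, were not used. Columns 5 and 9 hold the authors' deposited p-values of the first and second pair, and columns 6 and 10 the adjusted values. Column 10 is a deposited score that can pass 1. This reading of the columns is an inference from the values and their places. No source used here names the aligner, the counting or the test. The submitters' processing notes name hg19, whose chromosomes the tables do not follow, so their build is unknown, no gene is named and no sequence is shown.

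Sites were joined on chromosome and position with Python 3.11.15, pandas 2.3.3, numpy 2.4.6 and scipy 1.17.1, and figures were drawn with matplotlib 3.10.9. The functions were tested on simulated data. Shares have 95% Wilson intervals, and medians exact binomial ones. Weighting used 20 by 20 classes of columns 3 and 4. Depth is unknown, so precision per site is too. Runs, windows of 100 kb, the 10 strongest sums and the 10 smallest second-pair values were named by rule. The sites, lists and settings were chosen with earlier results of these data known. Sperm-alone sites have no haESC value, so the cell types could not be compared at them, and no test between cell types was made at shared sites.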

Additional observations from a re-analysis of the deposited data

Results flagged for a closer look

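The balance of columns 3 and 4 differed little between the classes in sperm and more in haESC, with opposite signs. The median log2 of column 3 over column 4 at sperm-alone sites minus that at shared sites was 0.07 in sperm, and the median at haESC-alone sites minus that at shared sites was -0.48 in haESC. The quartiles were far wider than the sperm value: -1.24 and 1.66 at sperm-alone sites, against -1.18 and 1.24 at shared sites. In haESC they were -1.59 and 0.84 at haESC-alone sites, against -0.90 and 1.11 at shared sites. The difference between the tables was not tested, and neither table has a replicate.

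The X chromosome entered no comparison of the report. There, 891 of 42476 sperm sites, or 2.10% (95% Wilson interval 1.97% to 2.24%), were listed in sperm alone, against 3.11% on the autosomes.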

How the results depend on the processing

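Of 41 alternatives to 14 results, 21 stayed within the counting interval of the result, or within 1.5 times a count, 18 moved beyond it and 2 changed direction. Allowing a match within 2 bp changed no count, since the closest haESC site lay 4 bp away. The share missing was 2.61% among first-pair calls and 2.23% above the lowest bands. The column 3 ratio was 0.645 with means, 0.375 with density weights and 0.377 for isolated sites, and the column 8 ratio 0.532 with density weights. At an adjusted p below 0.001, 39.1% of sperm-alone sites were called in the first pair and 0.560% in the second, which was -9.55 and -1.05 points from shared sites, against -11.6 and -4.11 points at 0.05. With signal weights the differences were 0.501, a change of sign, and -0.0536 points. These weights used columns 3 and 4, so the first-pair value was largely set by them. The ratio of sites within 1 kb, 1.02, was 1.13 within 200 bp and 0.981 within 10 kb, a change of direction. The share followed by another sperm-alone site was 7.13% within 1 kb and 11.0% for pairs both above 64. There were 38 runs of at least 4 sites and 4 of at least 6. The haESC column 3 ratio was 0.789 within 500 bp, against 0.878 at any distance, and at high sites 0.633 with a boundary of 32, against 0.501. The lowest-band, both-above-64 and boundary alternatives, leaving out runs of 5 or more from the signal ratios, and isolated sites for the high-site ratio were chosen after seeing the data. The cause of these moves was not tested.

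No paired analysis was possible because sperm-alone sites have no haESC value to pair with. At the shared sites beside them, none was made. Unknown depth limits each value: a site missing in haESC is not shown to lack signal there.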
